A study of Mus musculus with 8 samples.

Results

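Msx1, Msx2, Dlx3, Hoxc13, Foxn1, Gata3, Lef1, Ovol1 and Vdr are 9 transcription factors that direct cells of the hair follicle toward the hair shaft and the inner root sheath. They were chosen by name as known regulators of these fates, with earlier results of these data known. Comparisons of the 9 with all tested genes are therefore descriptions, not independent tests. The 9 factors are among the 46078 genes in the count table. All 9 passed the filter on low counts and were among the 16495 genes tested. Their Ensembl IDs in the table, all of protein-coding genes, are ENSMUSG00000048450 (Msx1), ENSMUSG00000021469 (Msx2), ENSMUSG00000001510 (Dlx3), ENSMUSG00000001655 (Hoxc13), ENSMUSG00000002057 (Foxn1), ENSMUSG00000015619 (Gata3), ENSMUSG00000027985 (Lef1), ENSMUSG00000024922 (Ovol1) and ENSMUSG00000022479 (Vdr). RNA was sequenced from Lgr5-traced cells sorted by flow cytometry from mouse epidermis after skin injury. The mice lacked regulatory T cells (Treg-depleted, 4 libraries) or had them (Treg-sufficient, 4 libraries). Both groups carried the labelled strain Lg5-egfp-ires-creert2/R26-tdTomato, in which a drug-inducible Cre made from the Lgr5 locus switches on a red reporter that stays on in the progeny of the labelled cells, so the sorted cells can include stem cells and their descendants. Experiment 1 held Treg-depleted replicates 1 and 2 and Treg-sufficient replicates 1 and 2, and experiment 2 held replicates 3 and 4 of each condition. The sources used here name neither the method of Treg removal, nor the kind of injury, nor the interval after it, nor the age and number of mice. No label states that replicates are separate animals, so a p-value measures the spread between these libraries, which may be technical in part.

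The lower hair follicle is built by matrix cells that divide at its base and then turn into concentric layers, the shaft in the middle and the inner root sheath around it. BMP and Wnt signals start this switch, and homeobox, forkhead and GATA factors carry it out by turning on hair keratin and root sheath genes. In mice, loss of Foxn1 causes the nude coat, and loss of Hoxc13, Dlx3, Msx2 or Vdr disturbs hair shaft formation or the regrowth of hair.

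A promoter window, from 250 bases before to 50 bases after the transcription start, was matched for 6 of the 9 genes in RefSeq (build GRCm38.p6), and windows for Dlx3, Hoxc13 and Ovol1 were not used here. Those of Msx2 and Foxn1 are shown as genes lower in Treg-depleted cells of experiment 1, and those of Gata3 and Vdr as the pair whose difference between conditions was positive. All are on the minus strand and are written 5′ to 3′, with capitals marking CG dinucleotides. The windows are chr13:53472731-53473030 for Msx2, chr11:78386559-78386858 for Foxn1, chr2:9878551-9878850 for Gata3 and chr15:97908247-97908546 for Vdr.
Msx2: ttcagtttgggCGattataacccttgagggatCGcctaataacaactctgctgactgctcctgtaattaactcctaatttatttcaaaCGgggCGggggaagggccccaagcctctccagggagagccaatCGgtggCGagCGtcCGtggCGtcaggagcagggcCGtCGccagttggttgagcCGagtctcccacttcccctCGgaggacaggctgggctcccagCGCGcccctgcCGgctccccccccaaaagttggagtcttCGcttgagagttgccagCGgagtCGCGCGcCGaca
Foxn1: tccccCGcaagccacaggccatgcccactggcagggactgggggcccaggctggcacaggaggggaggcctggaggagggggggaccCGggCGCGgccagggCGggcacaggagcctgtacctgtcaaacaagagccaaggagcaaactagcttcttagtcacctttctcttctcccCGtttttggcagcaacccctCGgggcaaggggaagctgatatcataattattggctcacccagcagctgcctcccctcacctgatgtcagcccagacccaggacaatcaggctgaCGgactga
Gata3: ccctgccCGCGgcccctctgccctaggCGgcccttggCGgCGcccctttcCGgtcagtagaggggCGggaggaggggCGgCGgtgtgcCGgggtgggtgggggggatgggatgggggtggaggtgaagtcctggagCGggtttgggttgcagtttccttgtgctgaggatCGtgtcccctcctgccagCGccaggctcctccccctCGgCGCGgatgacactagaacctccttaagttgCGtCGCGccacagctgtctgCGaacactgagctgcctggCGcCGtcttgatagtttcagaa
Vdr: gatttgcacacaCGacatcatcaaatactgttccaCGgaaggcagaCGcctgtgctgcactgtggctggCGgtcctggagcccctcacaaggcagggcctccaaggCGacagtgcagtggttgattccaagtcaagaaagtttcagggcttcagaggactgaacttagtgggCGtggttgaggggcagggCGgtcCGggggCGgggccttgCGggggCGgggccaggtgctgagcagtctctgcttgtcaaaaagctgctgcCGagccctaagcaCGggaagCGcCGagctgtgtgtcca
The Msx2 and Gata3 windows held 22 CG dinucleotides each, a number reached by 23.1% of the 32851 RefSeq mouse windows of this length. The Vdr window held 15 (34.6%) and the Foxn1 window 8 (48.6%), against a median of 7 over all windows. The Msx1 window, not printed, held 29 (12.9%).

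Short motifs were searched on both strands of these windows. The LEF1/TCF letters CTTTGAT or CTTTGTT or CTTTGAA or CTTTGTA occur in 16.9% of all windows, the MSX/DLX homeobox letters CAATTA in 8%, the GATA letters AGATAA or TGATAA in 18.6%, and the BMP SMAD letters GGCGCC in 11.9%. None of them was in the Msx1, Msx2, Foxn1 or Vdr window. The Gata3 window held GGCGCC 2 times, and of the 4 Lef1 windows the first and second, which share 274 bases, both contained the same single copy, while the last held 1 LEF1/TCF and 2 GATA matches. The homeobox letters TAATTA were added to the search after they had been seen in the printed Msx2 window, so that match is no independent observation. They occur in 5.29% of all windows and also 1 time in the Foxn1 window. A match is only a run of letters in the window.

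Total counts per library ran from 22330729 to 29975347. Lgr5 (308 to 518 CPM, with CPM being read counts scaled to the same TMM-adjusted library size), Krt5 (6438 to 12969 CPM) and Krt14 (2323 to 8869 CPM) were high in every library. The T cell gene Cd3e had between 0 and 2 counts. Treg-depleted replicate 2 and Treg-sufficient replicate 3 had counts for 18605 and 19593 genes, against 21720 to 23062 in the other libraries. For Xist and genes of the Y chromosome, CPM was scaled to total counts without the TMM adjustment. Xist, the RNA of the inactive X chromosome, reached 72.0 CPM in replicate 2 of the Treg-depleted group and 2713 CPM in replicate 2 of the Treg-sufficient group, against 0.967 to 2.26 CPM in the others. Genes of the Y chromosome summed to 2.84 CPM in that Treg-sufficient library, against 314 to 417 CPM in the 7 others, and in mice Xist is made by female cells and Y-linked genes by male cells. Treg-sufficient replicate 1 had 1.69 CPM of Xist and 330 CPM of Y-linked genes. Replicates 1 and 2 of this group thus had opposite sex patterns and were not repeats of the same material. Results that move without the libraries set apart above by gene number or Xist are given with and without them. The cells were sequenced in bulk, so fewer cells of a type and less RNA per cell cannot be told apart.

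Per length of exon, the factors covered a wide range of levels. Vdr, the vitamin D receptor, which in mouse skin is needed for hair regrowth also without its hormone, was the most abundant, with a mean of 204 CPM per kb over the 8 libraries (99.1st percentile of the tested genes with a length). Hoxc13, a homeobox activator of hair keratin genes, followed at 26.2 CPM per kb, Gata3, a zinc finger factor of the inner root sheath, at 22.7, and Dlx3, a homeobox factor of the matrix, shaft and root sheath, at 20.3. Msx2, a BMP-induced homeobox factor of the matrix, averaged 7.85 CPM per kb, Ovol1, a zinc finger factor of differentiating epidermis and hair, 4.62, and Msx1, the close relative of Msx2, 3.22. Lef1, the nuclear partner of beta-catenin in Wnt signalling, averaged 2.15 CPM per kb, and Foxn1, the forkhead factor lost in nude mice, 1.76. Vdr lay above Hoxc13 in 8 of 8 libraries, whereas Hoxc13 lay above Gata3 in 6, Gata3 above Dlx3 in 4 and Lef1 above Foxn1 in 5, so these neighbours were not separated beyond their spread.

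**Figure D1:**
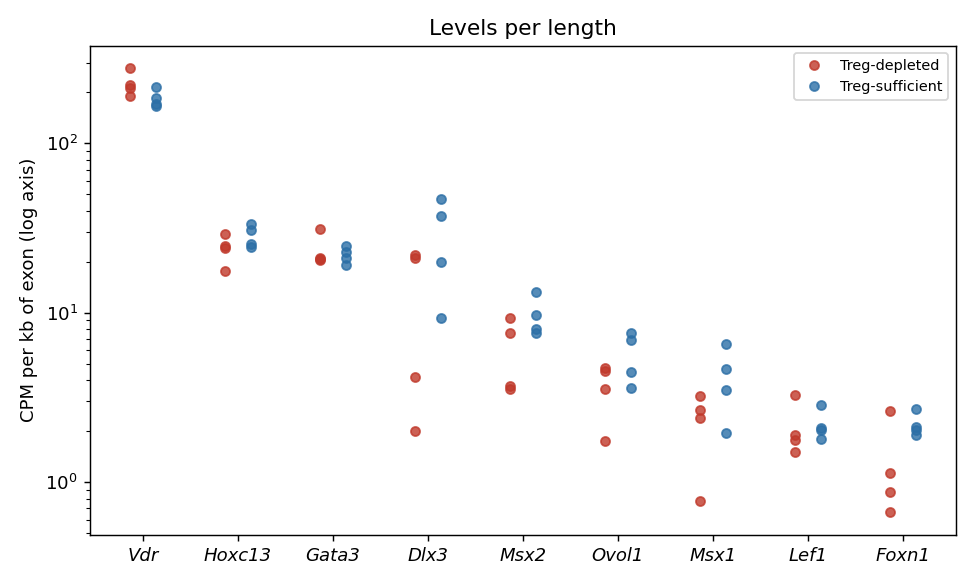
Level of each factor in CPM per kb of exon on a log axis, 1 point per library, with Treg-depleted libraries left of Treg-sufficient libraries. Vdr stands above all others in each library, and Dlx3 spreads over a 23.2-fold range.

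The factors differed more in how steady they were than their mean levels show. Between its lowest and highest library, Dlx3 ranged 23.2-fold, Msx1 8.46-fold, Ovol1 4.33-fold, Foxn1 4.09-fold and Msx2 3.74-fold. Lef1 (2.18-fold), Hoxc13 (1.89-fold), Vdr (1.67-fold) and Gata3 (1.62-fold) varied least. By the SD of log2 CPM over the 8 libraries, Dlx3 stood at the 98.5th percentile of tested genes and Gata3 at the 32.3rd.

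Between conditions, no factor passed the test over all 8 libraries, but Dlx3 and Msx2 had the smallest p-values of the 9 and lower values in Treg-depleted cells of each experiment. Dlx3 averaged 32.0 ± 27.8 CPM with Treg cells depleted and 73.7 ± 43.8 CPM with Treg cells present, and Msx2 averaged 19.8 ± 9.46 and 31.7 ± 8.45 CPM in the same order of groups (SD, n = 4 each). Vdr and Gata3 had positive differences and the other 7 of 9 negative ones, as did 49.7% of all tested genes, and the median log2 fold change was -0.59 over the 9 factors and 0.00 over all tested genes. No factor had all 4 Treg-depleted libraries below all 4 Treg-sufficient ones (0 of 9, against 1.05% of all tested genes) or above them (0 of 9, against 1.27%). With experiment as a term, edgeR's quasi-likelihood test called 0 of 9 factors at an adjusted p under 0.05 (0% of all tested genes were called), and 3 of 9 at an unadjusted p under 0.05 (7.12% of all tested genes). limma-voom called 0 of 9, while DESeq2 called 2 of 9 (0.509% of all tested genes), Dlx3 with an adjusted p of 0.00428 and Msx2 with 0.0317.

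**Figure D2:**
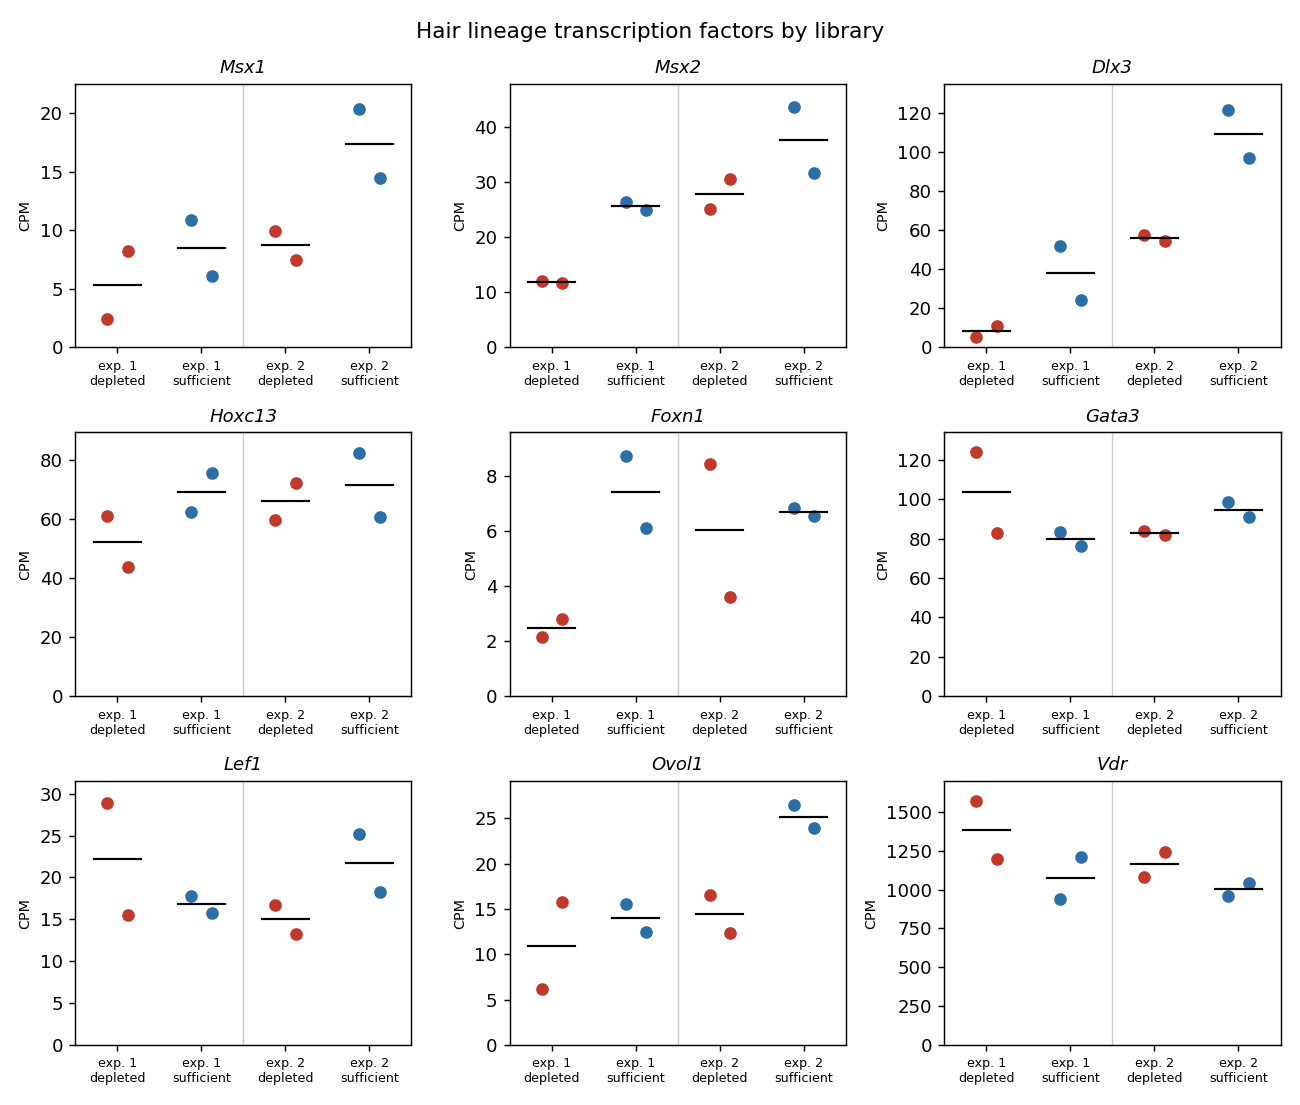
CPM of each factor in every library by experiment and condition, with points for libraries and bars for the mean of 2. In both experiments the Treg-depleted points of Msx2 and Dlx3 lie below both Treg-sufficient points, and Gata3 in Treg-depleted replicate 1 stands apart at 124 CPM.

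Among the homeobox factors, Dlx3 (chr11:95120119-95125296, plus strand, GRCm38) had 5.25, 10.8, 57.3 and 54.7 CPM in Treg-depleted replicates 1 to 4, against 51.8, 24.3, 122 and 97.1 CPM in Treg-sufficient replicates 1 to 4. Within each experiment both Treg-depleted libraries were below both Treg-sufficient ones, but across experiments the groups overlapped. The log2 fold change was -1.58 (SE 0.36, 95% interval -2.39 to -0.78, edgeR adjusted p = 0.686). Msx2 (chr13:53466884-53473074, minus strand) had 12.1, 11.7, 25.1 and 30.5 CPM in Treg-depleted libraries, against 26.5, 24.9, 43.6 and 31.7 CPM in Treg-sufficient libraries. It was likewise separated within each experiment and overlapped across them. Its log2 fold change was -0.77 (SE 0.18, interval -1.17 to -0.37, edgeR adjusted p = 0.686). Dlx3 and Msx2 were the 2 of 9 factors lower in Treg-depleted cells without overlap in both experiments, a pattern met by 3.23% of all tested genes, and 0 of 9 were higher without overlap in both (3.79%).

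Msx1 (chr5:37820485-37824583, minus strand) had 2.40, 8.21, 9.95 and 7.44 CPM in Treg-depleted libraries, against 10.9, 6.07, 20.3 and 14.4 CPM in Treg-sufficient libraries. The groups overlapped in experiment 1 and were separated in experiment 2. The log2 fold change was -0.85 (SE 0.37, interval -1.68 to -0.01, edgeR adjusted p = 0.696). Hoxc13 (chr15:102921103-102928814, plus strand) was steadier, with 60.9, 43.5, 59.6 and 72.1 CPM in Treg-depleted libraries, against 62.4, 75.4, 82.2 and 60.5 CPM in Treg-sufficient libraries. Its groups were separated by a narrow gap in experiment 1 and overlapped in experiment 2. The log2 fold change was -0.26 (SE 0.16, interval -0.62 to 0.10).

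Foxn1 (chr11:78357577-78386558, minus strand) had the lowest counts of the 9, between 59 and 240 per library. It had 2.13, 2.82, 8.44 and 3.62 CPM in Treg-depleted libraries, against 8.71, 6.11, 6.82 and 6.55 CPM in Treg-sufficient libraries. The Treg-depleted libraries of experiment 1 were below all Treg-sufficient libraries, whereas in experiment 2 one lay above and one below both. The log2 fold change over all libraries was -0.85 (SE 0.38, interval -1.73 to 0.02, edgeR adjusted p = 0.696).

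Ovol1 (chr19:5549136-5560646, minus strand) had 6.11, 15.7, 16.5 and 12.3 CPM in Treg-depleted libraries, against 15.5, 12.5, 26.4 and 23.9 CPM in Treg-sufficient libraries. The groups overlapped in experiment 1 and were separated in experiment 2, and the log2 fold change was -0.59 (SE 0.28, interval -1.22 to 0.04). Lef1 (chr3:131110471-131224356, plus strand) had 28.9, 15.5, 16.7 and 13.3 CPM in Treg-depleted libraries, against 17.8, 15.8, 25.2 and 18.3 CPM in Treg-sufficient libraries. Its highest library of all was Treg-depleted replicate 1, and its log2 fold change was -0.06 (SE 0.26, interval -0.67 to 0.54), with a sign that depended on which library was left out.

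Gata3 (chr2:9857078-9890034, minus strand) had 124, 83.1, 83.9 and 81.7 CPM in Treg-depleted libraries, against 83.2, 76.4, 98.5 and 91.1 CPM in Treg-sufficient libraries. Treg-depleted replicate 1 alone lay above every Treg-sufficient library. The log2 fold change was 0.09 (SE 0.16, interval -0.27 to 0.45) over all libraries and -0.10 without that library. Vdr (chr15:97854425-97910630, minus strand) had 1570.0, 1195, 1081 and 1244 CPM in Treg-depleted libraries, against 937, 1208, 960.0 and 1042 CPM in Treg-sufficient libraries. Its groups were separated, with Treg-depleted higher, in experiment 2 and overlapped in experiment 1, and the log2 fold change was 0.29 (SE 0.14, interval -0.02 to 0.61, edgeR adjusted p = 0.696). Gata3, Lef1 and Ovol1 overlap genes on the opposite strand, and the strand setting of the counting is not given in the sources used here. Reads of these neighbours may be among those of the factors, or reads of shared bases may have been set aside as ambiguous. The annotated partners of Ovol1 are not in the count table, so their counts are not known. The annotated opposite-strand partners of Gata3 and Lef1 had at most 53 counts in any library, against at least 325 for Lef1 and 1741 for Gata3.

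**Figure D3:**
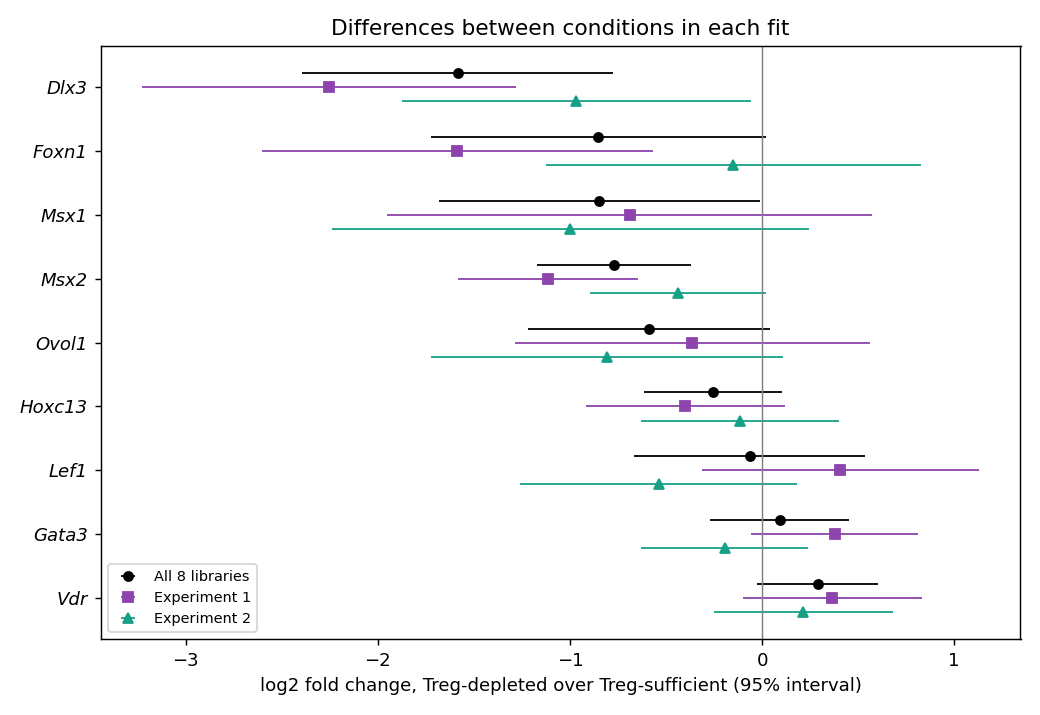
Log2 fold change of each factor, Treg-depleted over Treg-sufficient, with its 95% interval, over all 8 libraries (circles) and in experiment 1 (squares) and experiment 2 (triangles). Dlx3 lies left of 0 with its whole interval in all 3 fits, and Vdr lies right of 0 with intervals that include it.

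Set against the Treg-sufficient mean of its own experiment on the log2 scale, each Treg-depleted library had a different set of low factors. Dlx3 was lower in 4 of 4 Treg-depleted libraries, at -2.74, -1.70, -0.92 and -0.99 in replicates 1 to 4, and Msx2 in 4 of 4, at -1.08, -1.14, -0.57 and -0.28. Vdr was higher in 4 of 4, at 0.56, 0.17, 0.11 and 0.31. Msx1 and Ovol1 were low in replicate 1 (-1.73 and -1.18) and not in replicate 2 of the same experiment (0.01 and 0.18). Treg-depleted replicate 1 held the extremes in both directions, with Dlx3, Foxn1 and Msx1 at or below -1.73 and Lef1, Gata3 and Vdr at 0.79, 0.64 and 0.56. The median of the 9 factors was -1.08, -0.11, -0.36 and -0.69 in replicates 1 to 4, beside medians of 0.02, 0.00, 0.01 and 0.00 over all tested genes.

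**Figure D4:**
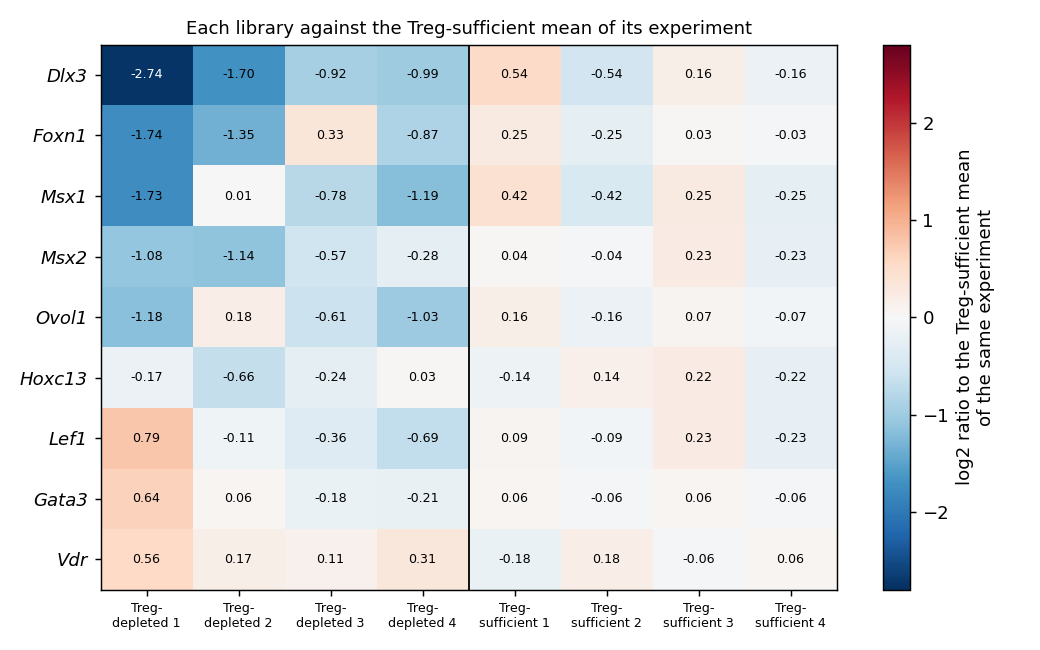
Log2 ratio of each library to the Treg-sufficient mean of the same experiment, with Treg-depleted libraries left of Treg-sufficient libraries. Dlx3 and Msx2 are negative and Vdr is positive in all 4 Treg-depleted libraries, while the other factors hold both signs.

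The differences between conditions were larger for some factors in experiment 1. In experiment 1, Dlx3 averaged 8.04 ± 3.95 CPM in Treg-depleted libraries against 38.0 ± 19.4 CPM in Treg-sufficient ones, and 56.0 ± 1.84 and 109 ± 17.3 CPM in the same groups of experiment 2 (SD, n = 2 each). Msx2 in experiment 1 averaged 11.9 ± 0.310 CPM in Treg-depleted libraries against 25.7 ± 1.07 CPM in Treg-sufficient ones, and 27.8 ± 3.87 and 37.6 ± 8.41 CPM in experiment 2. Foxn1 in experiment 1 averaged 2.47 ± 0.486 CPM in Treg-depleted libraries against 7.41 ± 1.84 CPM in Treg-sufficient ones, and 6.03 ± 3.41 and 6.68 ± 0.191 CPM in experiment 2. For each of these, the Treg-depleted libraries of experiment 1 were the low ones.

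In experiment 1, 4 of 9 factors (Msx2, Dlx3, Hoxc13 and Foxn1) were lower in both Treg-depleted libraries than in both Treg-sufficient ones, as were 19% of all tested genes, and 0 of 9 were higher in both (18.6%). The differences of 6 of 9 were negative, against 48% of all tested genes. The log2 fold changes were -2.25 for Dlx3 (SE 0.42, edgeR adjusted p = 0.0660), -1.11 for Msx2 (SE 0.20, edgeR adjusted p = 0.0636) and -1.59 for Foxn1 (SE 0.44, edgeR adjusted p = 0.188). edgeR called 0 of 9 (0.606% of all tested genes) and 3 of 9 at an unadjusted p under 0.05 (11.1%), while limma-voom called 0 of 9 (0.497%) and DESeq2 called these 3 (4.37%). Leaving out libraries gave further calls, but each such fit left at least 1 group of experiment 1 with a single library, assumed to vary like the groups that still had 2. Without Treg-depleted replicate 2, Dlx3 stood at -2.89 with an edgeR adjusted p of 0.0270 (1 of 9 factors and 2.61% of all tested genes called). Without both libraries numbered 2, edgeR called Dlx3 (-3.34, adjusted p = 0.00964) and Msx1 (-2.22, adjusted p = 0.0456), or 2 of 9 factors and 2.93% of all tested genes, with the spread taken from experiment 2 only since experiment 1 kept 1 library per condition. Without the 2 libraries with the fewest genes it called Dlx3 (-2.86, adjusted p = 0.0354) and Msx2 (-1.09, adjusted p = 0.0441), or 2 of 9 factors and 3.40% of all tested genes. Msx1 was at -0.69 with all libraries (SE 0.55, edgeR adjusted p = 0.748), and the median of the 9 factors, -0.40, was -0.14 without Treg-depleted replicate 1 and -1.12 without Treg-depleted replicate 2.

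In experiment 2, 6 of 9 factors (Msx1, Msx2, Dlx3, Gata3, Lef1 and Ovol1) were lower in both Treg-depleted libraries than in both Treg-sufficient ones, against 15.9% of all tested genes, and Vdr was higher in both (1 of 9, against 16.7%). The log2 fold changes were -0.999 for Msx1 (SE 0.54), -0.97 for Dlx3 (SE 0.39), -0.81 for Ovol1 (SE 0.40), -0.54 for Lef1 (SE 0.31) and -0.44 for Msx2 (SE 0.20). edgeR called 0 of 9 factors (0% of all tested genes, each factor with an adjusted p of 0.9996) and 1 of 9, Dlx3, at an unadjusted p under 0.05 (1.75%). limma-voom and DESeq2 also called 0 of 9 (0% and 0.00606% of all tested genes). The differences of 8 of 9 factors were negative, against 49.8% of all tested genes, with a median of -0.44.

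The test of the difference between experiments, experiment 2 effect minus experiment 1 effect, called 0 of 9 factors (0% of all tested genes) with edgeR, and 2 of 9 at an unadjusted p under 0.05 (5.6%), Msx2 and Foxn1. limma-voom and DESeq2 also called 0 of 9 (0% and 1.1% of all tested genes). The difference was 1.44 for Foxn1 (SE 0.61), 1.29 for Dlx3 (SE 0.56), 0.68 for Msx2 (SE 0.28) and -0.95 for Lef1 (SE 0.44), with edgeR adjusted p-values of 0.873, 0.896, 0.862 and 0.908. Without both libraries numbered 2 the difference for Dlx3 was 2.38 (edgeR adjusted p = 0.0365, with 0.535% of all tested genes called), but experiment 1 then had 1 library per condition and the spread came from experiment 2 only. The larger differences of Dlx3, Msx2 and Foxn1 in experiment 1 are therefore values that this test did not separate with all 8 libraries.

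Between experiments at either condition, Dlx3 was higher in experiment 2, with 57.3, 54.7, 122 and 97.1 CPM in its 4 libraries against 5.25, 10.8, 51.8 and 24.3 CPM in those of experiment 1. No library overlapped, which held for 1 of 9 factors and 7.5% of all tested genes. The log2 fold change, experiment 2 over experiment 1 with condition as a term, was 2.14 (SE 0.36, 95% interval 1.32 to 2.96, edgeR adjusted p = 0.0446). edgeR called 1 of 9 factors (1.62% of all tested genes), and Msx2, at 0.88 (SE 0.18, edgeR adjusted p = 0.0501), lay just outside. DESeq2 called both (2 of 9, against 13.1%), and limma-voom called 1 of 9 (1.79%). Among Treg-depleted libraries 3 of 9 factors were higher in both libraries of experiment 2 than in both of experiment 1 (24.7% of all tested genes), and among Treg-sufficient libraries 6 of 9 (19.6%). The call of Dlx3 was lost without any 1 of 7 libraries (edgeR adjusted p between 0.0615 and 0.141) and stood only without Treg-sufficient replicate 1 (0.0151), with fold changes from 1.83 to 2.54. Msx1 was at 0.88 (SE 0.37), Ovol1 at 0.63 (SE 0.28), Foxn1 at 0.55 (SE 0.38) and Gata3, Lef1 and Vdr between -0.17 and -0.04. The difference of Dlx3 between experiments was thus larger in log2 units than its difference between conditions (-1.58), a comparison of sizes that was not tested.

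The likeness of profiles was measured as the root mean square difference of centred log2 CPM over the 8 libraries, among 14156 genes with a mean of at least 1 CPM. Among the factors themselves, Gata3 and Lef1 were closest (0.18), then Gata3 and Vdr (0.22) and Msx1 and Ovol1 (0.28), while the nearest factor to Dlx3, Msx1, was at 0.81. Outside the 9, Dlx3 was nearest to Scn4b (0.24), Sstr2 (0.25) and Nkd2 (0.27), and Msx2 to March9 (0.11), Adgrl1 (0.13) and Lck (0.14). Msx1 was nearest to Ccnd2 (0.26), Kcnk5 (0.27) and Fzd10 (0.27), and Ovol1 to Gm21596 (0.20), Sac3d1 (0.24) and Abhd8 (0.25). Foxn1 was nearest to Pcdh18 (0.22), Wnk2 (0.27) and Shank3 (0.28), and Hoxc13 to Mmp11, Hps4 and Zfp273 (0.08, 0.09 and 0.10). Gata3 was nearest to Znrf3 (0.06), Hebp2 (0.08) and 6820431F20Rik (0.10), Vdr to Gramd1c, Arhgef10 and Skil (0.07, 0.07 and 0.08), and Lef1 to Gm23136, Mgmt and Fam228b (0.16, 0.17 and 0.18). These are descriptions of 8 libraries with shared depth and experiment. The smallest distances belong to factors that vary least.

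Among 37 other regulators of the hair lineage, 35 were tested, and between conditions 22 were lower and 13 higher in Treg-depleted cells, with 0 called by edgeR and a median log2 fold change of -0.08, beside 0.00 for all tested genes. The 3 with the highest mean, Ctnnb1, Hr and Rxra, differed little: beta-catenin gene Ctnnb1 averaged 1657 ± 149 CPM in Treg-depleted libraries against 1718 ± 207 CPM in Treg-sufficient ones. Hr, the hairless corepressor that partners Vdr, averaged 680.2 ± 129 and 702 ± 157 CPM in the same groups, and the Vdr partner Rxra 395 ± 21.7 and 450.4 ± 32.2 CPM. The Dlx relatives Dlx1 (-1.13, SE 0.38), Dlx2 (-0.88, SE 0.42) and Dlx4 (-0.88, SE 0.31) had negative differences like Dlx3, none called. Dlx5 was at -0.34 (SE 0.58). Among 27 relatives of the 9 factors, 12 were tested, with 6 lower, 6 higher, 0 called and a median of -0.02. Of 27 BMP and Wnt pathway genes 13 were lower and 14 higher, with 0 called and a median of 0.01. Their directions differed by experiment, with 8 lower and 19 higher in experiment 1 (median 0.18) and 18 lower and 9 higher in experiment 2 (median -0.20). Of 7 partners and targets of Vdr 4 were lower and 3 higher, with 0 called and a median of -0.05. Cyp24a1, the vitamin D target that degrades the hormone, averaged 1.40 ± 1.85 CPM in Treg-depleted libraries against 0.116 ± 0.167 CPM in Treg-sufficient ones (edgeR adjusted p = 0.686).

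In experiment 1 alone, 1 of the 35 other regulators was called (0.606% of all tested genes): Etv5, an ETS factor, was higher in Treg-depleted cells (log2 fold change 1.18, SE 0.19, edgeR adjusted p = 0.0477). Between experiments, 4 of the 35 were called (1.62% of all tested genes), all higher in experiment 2. They were Tcf7l1, a Wnt pathway repressor of follicle stem cells (0.77), Mycl (1.16), Dlx4 (1.69) and Myb (2.75), with edgeR adjusted p-values of 0.0439, 0.0439, 0.0483 and 0.0483. No gene of the BMP and Wnt list or of the Vdr list was called in any of the 5 comparisons.

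Genes that mark the layers these factors build had lower sums in the Treg-depleted libraries of each experiment, and so had markers of dermal and endothelial cells, given with the other cell types. The summed level of hair shaft keratins (4 of 13 tested) was 2.44, 4.96, 21.1 and 11.4 CPM in Treg-depleted replicates 1 to 4, against 20.3, 9.90, 52.4 and 35.9 CPM in Treg-sufficient replicates 1 to 4. Inner root sheath genes (11 of 13 tested) summed to 43.0, 62.9, 246 and 169 CPM in Treg-depleted libraries, against 191, 69.1, 349 and 447 CPM in Treg-sufficient libraries. Within each experiment both sums were lower in both Treg-depleted libraries. In experiment 1 the shaft keratin Krt35 was lower in Treg-depleted cells (log2 fold change -5.88, SE 0.82, edgeR adjusted p = 0.0336). It had 6 and 0 counts in these libraries against 279 and 124, so the size of this difference rests on counts near the floor. Mt4 of the third list, a metallothionein of squamous epithelia, was also lower in experiment 1 (-3.17, SE 0.50, edgeR adjusted p = 0.0460). Of all tested genes, 0.606% were called in experiment 1. Of 11 tested inner root sheath genes, the keratins Krt28 and Krt71 were called higher in experiment 2 than in experiment 1 (2.54 and 2.27, edgeR adjusted p = 0.0483 each). Between experiments, 1.62% of all tested genes were called.

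**Figure D5:**
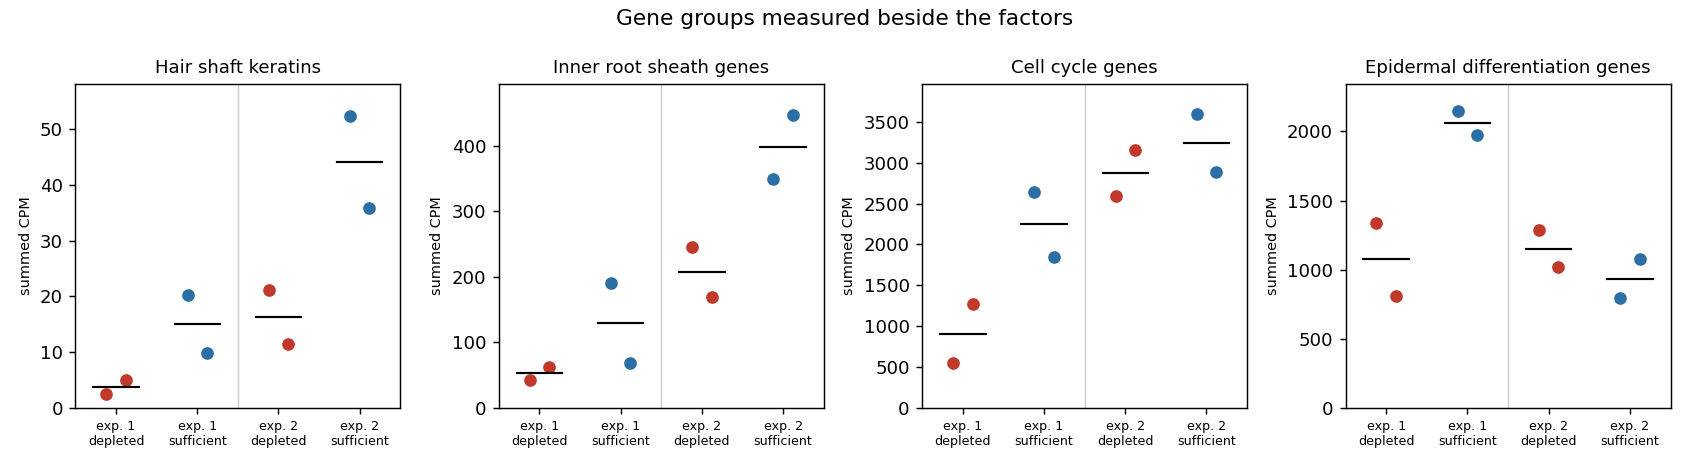
Summed CPM of 4 gene groups in every library by experiment and condition, with bars for the mean of 2. Hair shaft keratins and inner root sheath genes lie lower in the Treg-depleted libraries of each experiment, and cell cycle genes are lowest in Treg-depleted replicate 1 at 547 CPM.

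Levels of other cell states and types also varied between the libraries, and their part in the results was not tested. Cell cycle genes summed to 547, 1265, 2589 and 3150 CPM in Treg-depleted libraries, against 2646, 1848, 3591 and 2882 CPM in Treg-sufficient libraries, and 12 of 12 had negative differences between conditions with 0 called. Melanocyte genes, from a cell type of the hair bulb, summed to 60.1, 85.9, 205 and 198 CPM in Treg-depleted libraries, against 92.4, 67.7, 420 and 144 CPM in Treg-sufficient libraries, with 4 of 8, Dct, Tyrp1, Pmel and Kit, called higher in experiment 2 than in experiment 1 (log2 fold changes 2.48, 2.64, 2.52 and 2.51, edgeR adjusted p between 0.0439 and 0.0483; 1.62% of all tested genes were called). Fibroblast and dermal papilla genes summed to 21.0 and 24.2 CPM in the Treg-depleted libraries of experiment 1, against 94.0 and 38.3 CPM in its Treg-sufficient libraries, and in experiment 2 to 71.2 and 54.2 CPM against 74.3 and 106 CPM. Of the 10 genes, the dermal papilla gene Sox2 was at 0 in all libraries. Endothelial genes summed to between 1.86 and 2.30 CPM in Treg-depleted libraries against 3.92 to 4.30 CPM in Treg-sufficient ones in experiment 1, and to 2.98 to 4.01 CPM against at least 4.56 CPM in experiment 2. The sums of both lists, like the hair keratin sums, Dlx3 and Msx2, were therefore lower without overlap in each experiment. By gene, 6 of 8 tested fibroblast and dermal papilla genes were lower in experiment 1, but 5 of 8 were higher in experiment 2 (median 0.43). Of 3 tested endothelial genes, 3 were lower in experiment 1 and 2 in experiment 2.

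Epidermal differentiation genes summed to 1338 and 809 CPM in the Treg-depleted libraries of experiment 1, against 2146 and 1972 CPM in its Treg-sufficient libraries. Their sums overlapped in experiment 2. By gene, 11 of 14 tested were lower in Treg-depleted cells of experiment 1 (median -0.76). In experiment 2, 11 of 14 were higher (median 0.75), with 0 called in either experiment. Hair follicle stem cell genes had higher sums in the Treg-depleted libraries of experiment 1, between 16793 and 23528 CPM against 11237 to 15534 CPM. Their sums overlapped in experiment 2. By gene, however, 5 of 8 were lower and 3 higher in Treg-depleted cells of experiment 1, with 0 called and a median log2 fold change of -0.14. Sebaceous gland genes lay between 421 and 612 CPM in Treg-depleted libraries, against 589.6 to 691 CPM in Treg-sufficient ones. T cell genes matter for Gata3 since T cells also make it. They summed to between 13.4 and 23.2 CPM in Treg-depleted libraries, against 12.8 to 22.4 CPM in Treg-sufficient ones. Of these T cell genes, 6 of 12 had under 10 counts in every library. Most of the sum came from Thy1 and Lck, with means of 10.9 and 5.99 CPM over the 8 libraries. Cd3e had at most 2 counts, so the sum does not measure T cell content. Macrophage and Langerhans cell genes summed to between 6.54 and 14.7 CPM in Treg-depleted libraries, against 4.57 to 7.64 CPM in Treg-sufficient ones. Basal cell genes summed to 13547 to 14351 CPM in Treg-depleted libraries of experiment 2, against 14969 to 18554 CPM, with 3 of 6 genes lower. Their sums overlapped in experiment 1. Between experiments, edgeR called 1.62% of all tested genes. Of 14 differentiation genes it called Krtdap, lower in experiment 2 (-1.60), and Grhl3, higher (0.98). Of 6 basal cell genes it called Itgb4 (-0.90), lower. Of 8 stem cell genes it called the bulge gene Postn (-1.90), lower, and Tcf7l1, given above. The edgeR adjusted p-values of these genes lay between 0.0439 and 0.0472.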

How the data were processed

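RNA from flash-frozen sorted cells was isolated on RNeasy columns and made into libraries with the TruSeq Stranded mRNA kit, per the labels' protocols. The authors deposited raw read counts per Ensembl gene. The submitters' processing notes name TopHat2 (version 2), SAMtools, HTSeq, DESeq2 and build GRCm38.p4, without their roles; for the annotation release and strand setting, the status is: not given in the sources used here. Rows that name no gene stayed out of totals and tests; reads not aligned uniquely were 26.2 to 30.6%, without a feature 6.63 to 10.8% and ambiguous 2.72 to 3.01% of all tallied reads. Symbols, coordinates and exon lengths came from GENCODE M21 (GRCm38), which gave 45143 IDs a symbol.

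Counts were tested with edgeR 4.0.16 (R 4.3.3): TMM scaling, filterByExpr with a minimum count of 10, a quasi-likelihood fit, and Benjamini-Hochberg adjustment over 16495 genes at 0.05. Condition and experiment were terms of 1 model with 5 residual degrees of freedom; values within experiments and their difference came from a model of 4 groups with 4. Log2 ratios of single libraries used a prior count of 2. The scripts were tested on simulated data. Alternatives were DESeq2 1.42.0, limma-voom 3.58.1, other scaling factors, no filter on low counts, a replicate block and leaving out libraries. The 9 factors and all gene lists were chosen with earlier results of these data known. All 9 factors are named; so are, for each, the 3 genes with the most similar profile, and from each list the genes past the threshold; where a list had none, the 3 of highest mean CPM are named only for the other hair regulators. The Dlx relatives, Cyp24a1, Cyp27b1 and the marker genes with values were named after their values were seen.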

Additional observations from a re-analysis of the deposited data

Results flagged for a closer look

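Gata3 in Treg-depleted replicate 1 stood far from the rest of its group, at 124 CPM against 81.7 to 83.9 CPM in the other Treg-depleted libraries. The gap made up 0.948 of the range of the 4 values, above Dixon's 95% critical value for a group of 4. Of 18 groups of 4 examined, 9 factors in 2 conditions, 1 was flagged, and chance flags about 1 in 20.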

How the results depend on the processing

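Of the values of single factors under the alternatives, 676 kept their direction and their side of the threshold, 25 newly passed it, 9 no longer passed it and 28 reversed; where a cause is not named, the cause was not tested. Called factors between conditions numbered 0, against 2 with DESeq2 (0.509% of all tested genes) and 3 without the filter on low counts (2.97% of 27611 genes; 0 whichever library was left out). In experiment 1 they numbered 0, against 3 with DESeq2 (4.37%), 3 without the filter (4.17%), 2 without both libraries numbered 2 (2.93%) and 2 without the 2 libraries with the fewest genes (3.40%), an alternative chosen after seeing the data (0 to 1 with single libraries left out). In experiment 2 the count was 0, against 1 without the filter (0.478%). For the difference between experiments' effects it was 0, against 1 without the filter (1.93%) and 1 without both libraries numbered 2 (0.535%). Between experiments it was 1, against 2 with DESeq2 (13.1%), 2 with DESeq2 median-ratio factors in edgeR (1.70%), 4 without the filter (8.85%), 0 without both libraries numbered 2 (0.0120%) and 0 without the 2 libraries with the fewest genes (0%; 0 to 2 with single libraries left out).

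Without the 2 libraries with the fewest genes, log2 fold changes reversed for Lef1 between conditions (0.25), Hoxc13 in experiment 2 (0.12) and Hoxc13 between experiments (-0.038), and in the difference of effects for Msx1 (1.09) and Ovol1 (0.46). Without both libraries numbered 2, the difference of effects reversed for Msx1 (1.22), Hoxc13 (-0.037) and Ovol1 (0.58). With single libraries left out, Gata3 ranged from -0.10 to 0.17 and Lef1 from -0.38 to 0.12 between conditions. In experiment 1, Lef1 ranged from -0.14 to 0.75 and Ovol1 from -1.23 to 0.15, and in experiment 2 Hoxc13 from -0.32 to 0.12 and Foxn1 from -0.89 to 0.34. The difference of effects ranged from -0.93 to 0.85 for Msx1, -0.96 to 0.42 for Ovol1 and -0.31 to 0.082 for Vdr. Between experiments, Gata3 ranged from -0.12 to 0.14 and Lef1 from -0.28 to 0.20. Over all genes, DESeq2 called 84 between conditions (edgeR 0), 721 in experiment 1 (edgeR 100), 182 for the difference of effects (edgeR 0) and 2167 between experiments (edgeR 268); without the filter, of 27611 genes, these were 820, 1152, 534 and 2443, and 132 in experiment 2 (edgeR 0). Fits that leave a group with 1 library assume that it varies like the other groups.

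Libraries of the 2 conditions share replicate letters. Deviations from condition means correlated at 0.179, 0.130, 0.0941 and 0.314 for replicates 1 to 4, not all over 0.1, and 4 of 8 libraries correlated best with their own number. Both measures still hold the difference between experiments, which libraries of the same number share. Deviations from the means of each condition in each experiment correlated at -0.0953 for replicates 1 and 2 and -0.118 for replicates 3 and 4. The numbers were therefore not taken to pair the libraries. With the replicate block, 0 factors were called between conditions, in either experiment and for the difference of effects, and 2 genes in all were called in experiment 1. Foxn1, with 59 to 240 counts, has the least depth of the 9.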
